A study of Mus musculus with 4 samples.

Results

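The nuclear genes for the subunits of the 5 oxidative phosphorylation complexes and for cytochrome c were examined in skeletal muscle of mice lacking corticotropin-releasing factor receptor 2 (Crhr2-/-, here KO) and of their wild-type littermates (Crhr2+/+, here WT). A list of 59 subunit genes was matched by old or current symbol to the array's annotation, and 51 of them were read by at least 1 probe set that names no other gene, out of 8251 genes and 12422 probe sets measured. The 51 genes had 68 probe sets. The 8 others are Ndufs6, Ndufs7, Ndufs8, Ndufa4, Uqcrfs1, Cox7c, Atp5b and Atp5h, and they are not analysed here. All mice were untreated males of 6.5 months on a mixed C57BL/6x129 background, fed chow. RNA from the combined gastrocnemius and soleus, a fast and a slow muscle, came from 4 mice of each genotype and was mixed in pairs, giving 2 pools that were each read on 1 Affymetrix U74Av2 array. Genotypes were read from the sample titles, since the labels exchange the contents of the tissue and genotype fields. With 2 arrays per genotype, an exact two-sided permutation test of a single gene cannot go below p = 0.333, and p-values measure the spread between pools of mice rather than between single mice.

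Oxidative phosphorylation makes most of the ATP of a working muscle fibre. Complex I takes electrons from NADH and complex II from succinate, complex III passes them to cytochrome c, and complex IV hands them to oxygen. The protons pumped on the way drive ATP synthase (complex V). Slow and other oxidative fibres hold more mitochondria than fast glycolytic fibres, so the level of these transcripts in a muscle depends on its fibre types as well as on the level within each fibre. In a bulk sample, fewer oxidative fibres and less of a transcript per fibre cannot be told apart.

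The targeted gene was read first as a check of the labels. The brighter Crhr2 probe set gave 100.4 and 75.1 in KO, against 154 and 192 in WT, and the groups did not overlap. Its log2 fold change was -0.88 ± 0.25 (SE, limma adjusted p = 0.803). The gene's other probe set lay below the table's median and gave 36.7 and 22.7 in KO, against 18.8 and 45.3 in WT, with overlapping groups (-0.03 ± 0.43). Which exons the probes match, and which the allele removes, was not known here, so the reading is a limited check. Of 14 skeletal muscle markers 13 were measured, and their summed signal was 140220 and 154850 in KO, against 149020 and 144680 in WT.

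As a group the subunit genes stood slightly lower in KO muscle, and no single gene passed the test. Each gene was taken from its probe set with the highest mean, on the scale log2(intensity + 14), and the fold change is the KO mean minus the WT mean. Of the 51 genes, 42 were lower on average in KO (82.4%), where 50.8% of all 8251 genes were lower. The median log2 fold change was -0.11, and the median member read 92.5% of its WT mean on the linear scale. Over all genes the median log2 fold change was -0.0044. Both KO arrays lay below both WT arrays for 20 of the 51 genes (39.2%), against 18.2% of all genes. Both KO arrays lay above both WT arrays for 3 genes, Ndufv1, Ndufa7 and Cox6b1, against 16.5% of all genes, and the groups overlapped for the remaining 28.

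For single genes the errors were large beside the fold changes. The median standard error of a member's fold change was 0.12, and the pools of 1 genotype differed from each other by a median of 0.16 in KO and 0.10 in WT on the log2 scale. With limma, 0 of the 68 member probe sets had an adjusted p under 0.05, and 0 of all 12422 did (0.00%). Unadjusted p-values under 0.05 were found for 3 genes lower in KO, Cox6c, Atp5g2 and Cox5a, where 2.98% of all genes met that rule, and for 1 gene higher in KO, Cox6b1, where 2.50% did. Most of the members were bright. A total of 47 had a mean above the table's median intensity of 69.2, and 41 of these 47 had a log2 fold change within 0.25 of 0. Of the 47, 39 were lower in KO, against 51.7% of the 4841 genes above that level. Both KO arrays lay below both WT arrays for 19 of the 47, against 19.0% of those genes. The 4841 genes are not matched in brightness to the members. Their median intensity was 233, against 3553 for the 47, and their median standard error was 0.19, against 0.12.

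**Figure D1:**
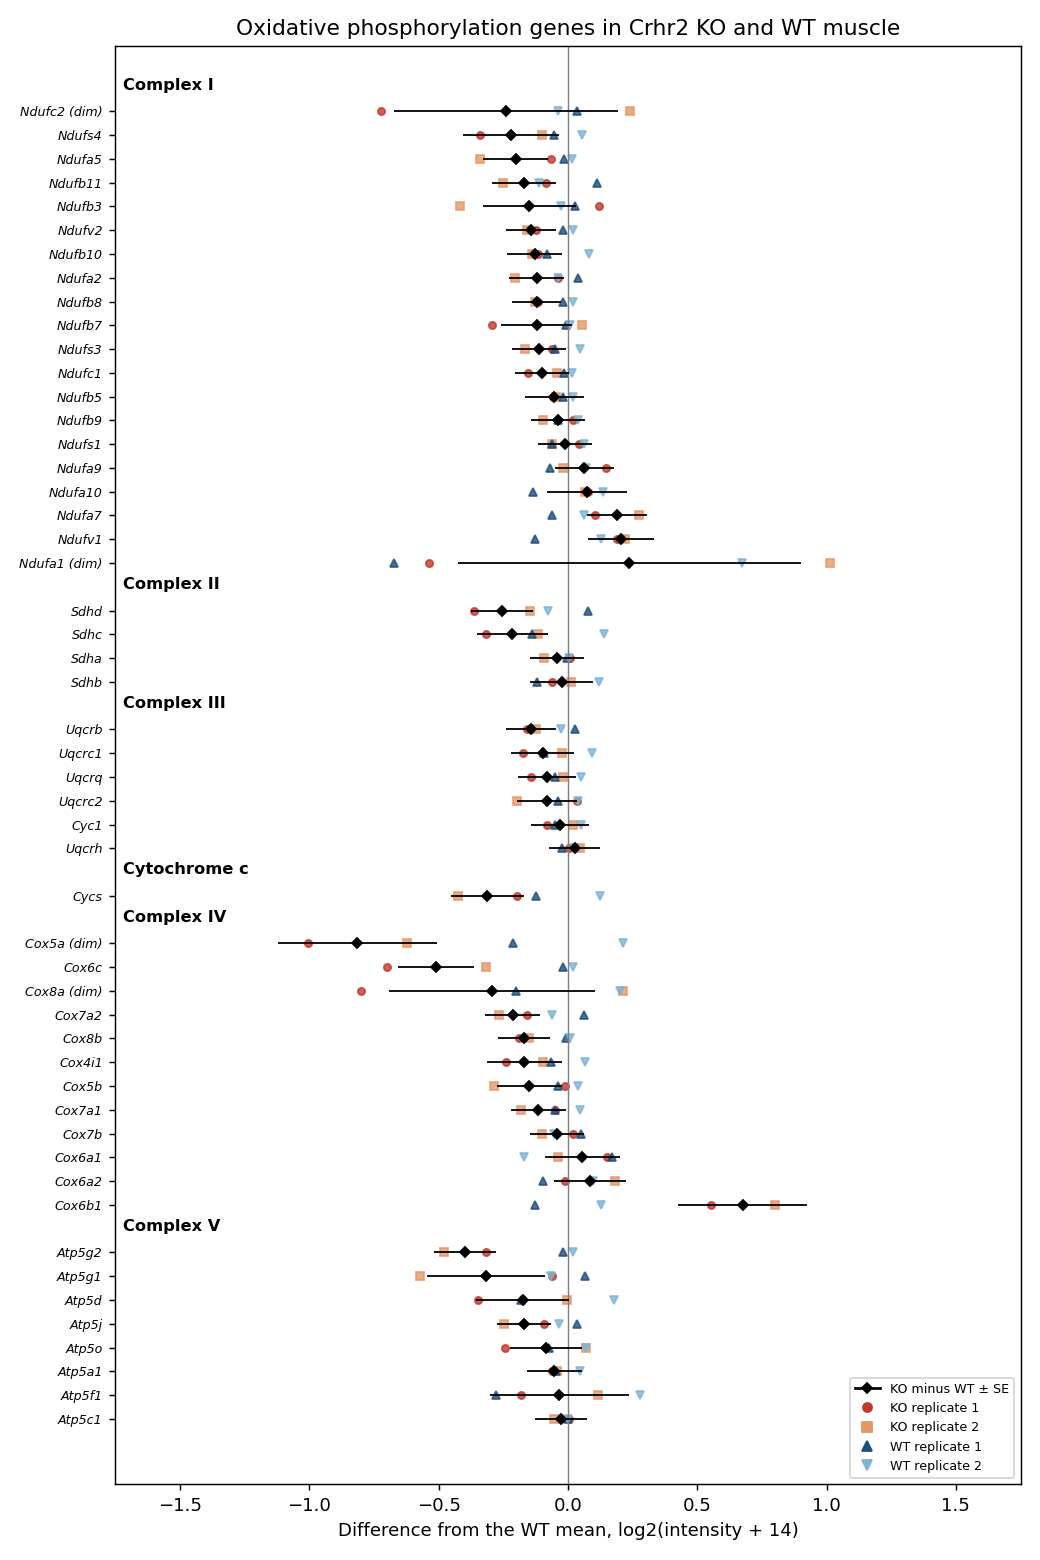
Each of the 51 oxidative phosphorylation genes by complex, as the difference from the WT mean on the log2(intensity + 14) scale, with 1 symbol per array and a black diamond for KO minus WT with its standard error (n = 2 arrays each). Most diamonds lie slightly left of 0 within 1 or a few standard errors, Cox6c, Atp5g2 and Cox6b1 stand furthest out among the bright genes, and genes marked dim have a mean below the table median.

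**Figure D2:**
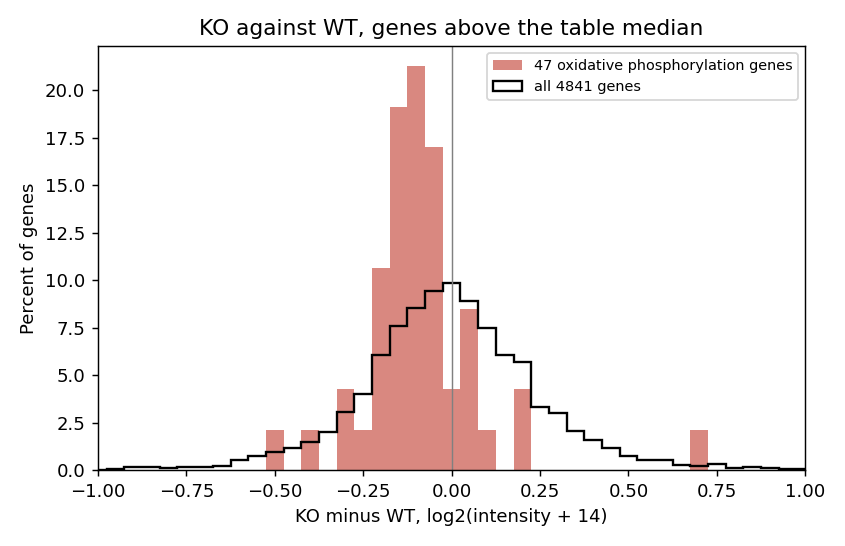
Share of genes (percent, in steps of 0.05) against the log2 fold change of KO over WT, for the 47 oxidative phosphorylation genes (filled) and all 4841 genes (line) with a mean above the table median. The filled bars centre left of 0 and are narrower than the line, and the axis ends at 1 on either side. The 4841 genes are dimmer than the 47, at a median intensity of 233 against 3553.

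Complex I oxidises NADH and is the largest complex of the chain. Of its 20 measured genes, 15 were lower in KO and 5 higher, and the median difference was -0.12 on the log2 scale. Both KO arrays lay below both WT arrays for 9 genes and above them for 2. For the counts in this and the following complexes, the shares over all genes were 50.8% lower in KO, 18.2% with both KO arrays below and 16.5% with both above. The catalytic core was not uniform in direction. Ndufv1, the flavoprotein that binds NADH, read 7769 and 7934 in KO, against 6240 and 7435 in WT, so both KO arrays were higher although the WT arrays differed from each other by more than the gap between genotypes (log2 fold change 0.20 ± 0.13, limma adjusted p = 0.908). Ndufv2, its iron-sulfur partner, read 3759 and 3669 in KO, against 4040 and 4157 in WT, and its groups were separate (-0.14 ± 0.10). Its dimmer probe set gave -0.04 ± 0.21. Ndufs3, a core subunit near the quinone site, differed by -0.11 ± 0.10 with both KO arrays below both WT arrays, and Ndufs1, the large iron-sulfur subunit, by -0.01 ± 0.10.

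The accessory subunits, which surround and stabilise that core, included 12 of 16 genes lower in KO. Ndufa7 was the accessory gene with the smallest p and was higher in KO, with 5135 and 5783 in KO, against 4575 and 4990 in WT (0.19 ± 0.12). Ndufa5 went the other way, with 3991 and 3295 in KO, against 4134 and 4217 in WT (-0.20 ± 0.12). In both genes all KO values lay on 1 side of all WT values, by less than the KO arrays differed from each other. Ndufs4, whose loss in mice causes an early encephalopathy, differed by -0.22 ± 0.19 with separate groups. Ndufa2 (-0.12 ± 0.11), Ndufb8 (-0.12 ± 0.10), Ndufb10 (-0.13 ± 0.11), Ndufb5 (-0.05 ± 0.11) and Ndufc1 (-0.10 ± 0.10) had separate groups, all with KO below, Ndufa2 by a margin within rounding. Ndufb3 (-0.15 ± 0.18), Ndufb7 (-0.12 ± 0.14), Ndufb9 (-0.04 ± 0.10) and Ndufb11 (-0.17 ± 0.12), all of the membrane arm, were lower on average with overlapping groups. Ndufa9 (0.06 ± 0.11) and Ndufa10 (0.07 ± 0.15) were higher on average with overlapping groups. Ndufa1 and Ndufc2 were dim, at means of 30.0 and 36.6 over the 4 arrays, and their fold changes of 0.24 ± 0.66 and -0.24 ± 0.43 are smaller than their standard errors. The other, also dim, probe sets of Ndufa1, Ndufb7 and Ndufb10 gave -0.37 ± 0.39, 0.46 ± 0.36 and -0.01 ± 0.37.

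Complex II, succinate dehydrogenase, also serves the TCA cycle and is the complex that is wholly nuclear-encoded. All 4 of its genes were lower on average in KO, and the median difference was -0.13 on the log2 scale. Sdhd, the small anchor subunit, read 1732 and 2016 in KO, against 2356 and 2118 in WT, and its groups were separate (-0.26 ± 0.12, limma adjusted p = 0.908). Sdhc, the large anchor, read 2945 and 3388 in KO, against 3330 and 4040 in WT, where the higher KO array passed the lower WT array (-0.21 ± 0.14). Sdha, the flavoprotein, read 805 and 748 in KO, against 798 and 801 in WT (-0.04 ± 0.11). Sdhb, the iron-sulfur subunit, read 4271 and 4492 in KO, against 4098 and 4845 in WT (-0.02 ± 0.12). These last pairs overlapped, and their means differed by less than the arrays of 1 genotype did.

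Complex III carries electrons from ubiquinol to cytochrome c. Of its 6 measured genes 5 were lower in KO, with a median of -0.08, the smallest among the complexes. Uqcrb, which helps to form the quinone site, read 3507 and 3594 in KO, against 3998 and 3843 in WT, and was the gene of this complex with separate groups (-0.14 ± 0.10). The core proteins Uqcrc1 and Uqcrc2 overlapped. Uqcrc1 read 5487 and 6101 in KO, against 5802 and 6612 in WT (-0.10 ± 0.12), and Uqcrc2 read 3289 and 2806 in KO, against 3129 and 3301 in WT (-0.08 ± 0.12). Uqcrq read 6979 and 7587 in KO, against 7440 and 7963 in WT (-0.08 ± 0.11), and the hinge protein gene Uqcrh differed by 0.03 ± 0.10. The probe sets of Cyc1, which encodes cytochrome c1, disagreed. The brighter gave 7419 and 7936 in KO, against 7562 and 8122 in WT (-0.03 ± 0.11). The dimmer, of a type with a less specific probe choice, gave 708 and 715 in KO, against 515 and 586 in WT, with separate groups (0.36 ± 0.12, limma adjusted p = 0.830).

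Cytochrome c, the mobile carrier between complexes III and IV, is encoded in somatic tissue by Cycs. It read 648 and 552 in KO, against 682 and 814 in WT. Both KO arrays were below both WT arrays, and KO averaged 80.1% of WT (600 ± 67.8 in KO, 748 ± 93.4 in WT, SD, n = 2 each). The log2 fold change was -0.31 ± 0.14 (limma adjusted p = 0.908), and it was -0.20 without KO replicate 2 and -0.19 without WT replicate 2.

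Complex IV, cytochrome c oxidase, held the genes that stood furthest out in either direction. Of its 12 measured genes, 9 were lower and 3 higher in KO, and the median difference was -0.16 on the log2 scale. Cox6c, a small subunit of the membrane part, read 4224 and 5510 in KO, against 6789 and 6960 in WT. It averaged 70.8% of its WT level in KO, and the KO arrays differed from each other far more than the WT arrays (log2 fold change -0.51 ± 0.15, limma adjusted p = 0.803). Without KO replicate 1 it was -0.32. The bright Cox6c probe set is of a type whose probes can match related sequences, and the gene's 2 other probe sets were dim, with 0.18 ± 0.36 and -0.29 ± 0.36. Cox6b1, which lies at the dimer interface of the oxidase, was opposite, with 128 and 154 in KO, against 74.2 and 91.3 in WT (0.68 ± 0.25, limma adjusted p = 0.859). It was read by a single probe set, of the less specific kind. Cox5a read 4.67 and 10.4 in KO, against 18.4 and 29.4 in WT, on a dim probe set (-0.81 ± 0.31, limma adjusted p = 0.862). Its other probe set gave -0.35 ± 0.39. Both Cox5a probe sets lay far below the table median, so its fold depends on the pseudocount, with -1.60 at a pseudocount of 1 and -0.33 at 4 times the one used.

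**Figure D3:**
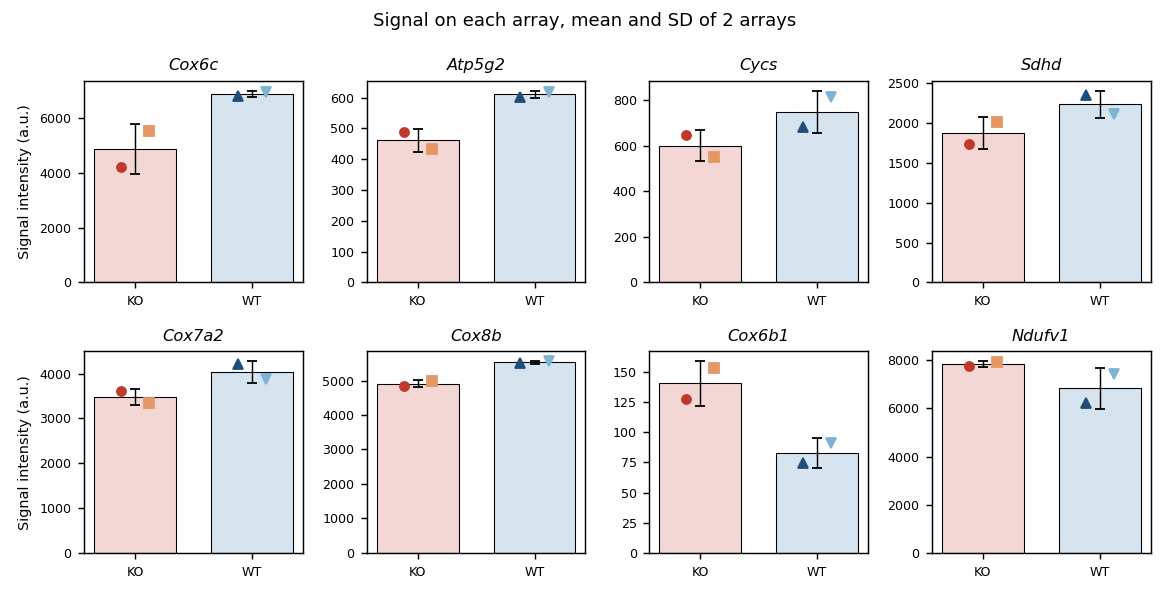
Signal intensity (arbitrary units) of 8 genes on each array, with bars for the mean and error bars for the SD of 2 arrays, KO left of WT in each panel. Circles and squares are KO replicates 1 and 2, and upward and downward triangles are WT replicates 1 and 2. Both KO arrays lie below both WT arrays for Cox6c, Atp5g2, Cycs, Sdhd, Cox7a2 and Cox8b, and above them for Cox6b1 and Ndufv1.

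Complex IV carries isoforms of striated muscle and heart beside ubiquitous forms of the same subunit. The muscle forms Cox6a2, Cox7a1 and Cox8b and the ubiquitous forms Cox6a1, Cox7a2 and Cox8a were read by separate probe sets, whose levels cannot be set against each other. Cox6a2 read 12205 and 13960 in KO, against 11498 and 13159 in WT (0.09 ± 0.14), and Cox6a1 read 1414 and 1235 in KO, against 1431 and 1128 in WT (0.06 ± 0.15). Neither form of subunit 6a separated the genotypes. Cox7a1 read 1058 and 966 in KO, against 1059 and 1133 in WT (-0.11 ± 0.11), and Cox7a2 read 3612 and 3353 in KO, against 4211 and 3871 in WT (-0.21 ± 0.11). Both forms of subunit 7a had KO below WT, Cox7a1 narrowly. Cox8b read 4840 and 4978 in KO, against 5494 and 5553 in WT (-0.17 ± 0.10), and its other probe set gave 445 and 409 in KO, against 498 and 453 in WT (-0.15 ± 0.13). The ubiquitous Cox8a was dim in both genotypes, at 3.41 and 21.1 in KO, against 12.4 and 20.8 in WT. Muscle and ubiquitous forms thus had the same sign on average where both were bright, and the difference between forms was not tested. The remaining genes Cox4i1 (-0.17 ± 0.14), Cox5b (-0.15 ± 0.13) and Cox7b (-0.04 ± 0.10) were lower on average, with separate groups for Cox4i1 and -0.38 ± 0.35 on its dim probe set.

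Complex V, ATP synthase, turns the proton gradient into ATP. All 8 of its measured genes were lower on average in KO (median log2 fold change -0.13), and 2 of them, Atp5g2 and Atp5j, had separate groups. Atp5g2 and Atp5g1 encode the same mature subunit c of the membrane ring with different targeting peptides. Atp5g2 read 487 and 434 in KO, against 603 and 619 in WT, so KO averaged 75.4% of WT (-0.40 ± 0.12, limma adjusted p = 0.813). That probe set is of a type whose probes can match related sequences. The gene's dim probe set, which is not of such a type, gave -0.10 ± 0.34. Atp5g1 read 188 and 128 in KO, against 207 and 187 in WT, and overlapped narrowly (-0.32 ± 0.23). Its dim probe set gave 0.64 ± 0.47, so the sign for Atp5g1 depends on the probe set. Atp5j, coupling factor 6 of the stalk, read 3058 and 2748 in KO, against 3340 and 3187 in WT (-0.17 ± 0.11). Atp5d, the delta subunit of the central stalk, was read by 5 probe sets. The brightest gave 403 and 517 in KO, against 455 and 588 in WT (-0.18 ± 0.18), and the others gave -0.10 ± 0.14, -0.09 ± 0.16, -0.13 ± 0.45 and 0.31 ± 0.37, the last 2 dim. Atp5a1 (-0.05 ± 0.11), the central stalk gene Atp5c1 (-0.03 ± 0.10) and the peripheral stalk genes Atp5o (-0.09 ± 0.14) and Atp5f1 (-0.03 ± 0.27) differed by less than their standard errors. The other probe set of Atp5c1 gave -0.17 ± 0.13.

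Where a gene had several probe sets, they gave a partial check. Of the 13 such genes, 7 had the same direction on all of their probe sets. Of the 5 with more than 1 probe set above the table median, 4 had the same direction on those, and Cyc1 did not. Beside Cox6c, Cox6b1 and Atp5g2, the brightest probe set was of a less specific type for the following genes: Ndufa5, Ndufb5, Sdhb, Uqcrc2, Uqcrb, Cox4i1, Cox6a1, Cox8b, Atp5c1, Atp5d and Atp5g1. Over all 68 probe sets, 54 were lower in KO and 22 had both KO arrays below both WT arrays, where 17.6% of all tested probe sets did.

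**Figure D4:**
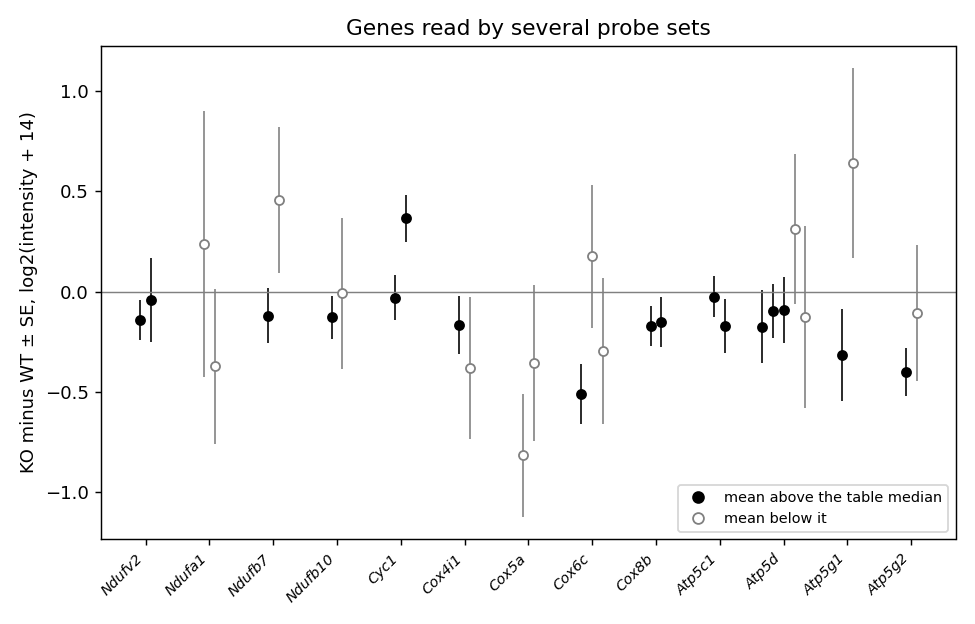
KO minus WT on the log2(intensity + 14) scale with its standard error (n = 2 arrays each) for every probe set of the 13 genes read by more than 1, brightest at the left within a gene. Filled points have a mean above the table median and open points below it. The filled points are below 0 except for the dimmer probe set of Cyc1 at 0.36.

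Promoter sequence was examined for the letters bound by NRF-1, GABP and ERR, factors known to regulate nuclear genes of mitochondrial proteins. RefSeq windows of 300 bases (GRCm38.p6, 250 before to 50 after the annotated start) matched 39 of the 51 genes. On either strand, the NRF-1 palindrome, in capitals in the sequences printed here, stood in 3 of the 39 genes (7.69%), against 1.94% of the genes on the array. The GABP core CCGGAAG stood in 9 (23.1%, against 17.1%) and the ERR letters CAAGGTCA in 1, Sdhd (2.56%, against 1.44%). The 3 genes with the NRF-1 letters were Atp5g2, Cox6a1 and Uqcrc1. They did not share a direction, with log2 fold changes of -0.40, 0.06 and -0.10. The 250 bases before the start are shown for the 2 genes whose NRF-1 letters lie there, since they stood at different places in the comparison. Capitals mark the NRF-1 letters and, in Cox6a1, the GABP core read on the opposite strand, and these do not overlap. The windows are chr15:102671048-102671297 for Atp5g2 and chr5:115348959-115349208 for Cox6a1, both on the minus strand and written 5′ to 3′ along the gene.
Atp5g2: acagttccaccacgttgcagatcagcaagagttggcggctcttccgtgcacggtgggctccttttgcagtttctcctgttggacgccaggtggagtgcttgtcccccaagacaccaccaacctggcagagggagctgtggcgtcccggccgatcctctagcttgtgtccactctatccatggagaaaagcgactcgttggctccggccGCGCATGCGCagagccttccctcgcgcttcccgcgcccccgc
Cox6a1: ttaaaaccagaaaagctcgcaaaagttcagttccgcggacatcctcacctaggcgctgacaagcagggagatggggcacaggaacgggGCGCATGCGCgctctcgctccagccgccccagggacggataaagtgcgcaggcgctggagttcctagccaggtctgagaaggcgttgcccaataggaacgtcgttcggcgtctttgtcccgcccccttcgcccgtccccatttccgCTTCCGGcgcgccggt
A match of letters is a description of the window and not a bound site.

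The other genes of the pathway were described from lists of related function. Of 28 further subunit and closely associated genes 20 were measured, and 16 of these were lower in KO with a median of -0.12, close to the -0.11 of the members. Both KO arrays lay below both WT arrays for 11 of the 20, against 18.2% of all genes. For the counts of lower genes in this and the next 3 lists, the share over all genes was 50.8%. Usmg5, a small ATP synthase-associated protein, read 8567 and 8056 in KO, against 10234 and 10199 in WT (-0.30 ± 0.11, limma adjusted p = 0.859). Cox7a2l, a factor of respiratory supercomplexes, read 858 and 949 in KO, against 1045 and 1056 in WT (-0.22 ± 0.11). Assembly factors, which build the complexes without staying in them, were lower in KO in 5 of 16 cases and higher in 11, with a median of 0.08. Among them Hccs, which attaches haem to c-type cytochromes, read 229 and 219 in KO, against 158 and 171 in WT (0.41 ± 0.17), and Ndufaf1 differed by 0.25 ± 0.14. Carriers and electron entry genes were lower in 16 of 20 cases (median -0.05). Vdac2, a channel of the outer membrane, read 406 and 459 in KO, against 552 and 569 in WT (-0.37 ± 0.12), and the dim Ckmt1 differed by -0.83 ± 0.33. Regulators of mitochondrial biogenesis were lower in 12 of 16 cases (median -0.12). Only 9 of the 16 had a mean above the table median, and the median standard error was 0.28. Both KO arrays lay below both WT arrays for 3 of the 16, against 18.2% of all genes. Among the regulators, the nuclear receptor Esrra read 750 and 958 in KO, against 967 and 1063 in WT (-0.25 ± 0.14). Its relative Esrrb was dim (-0.32 ± 0.24). None of the genes of these 4 lists had an adjusted p under 0.05 with limma, and unadjusted p-values under 0.05 were found for 3 genes lower in KO and 1 higher of the 72 measured, where 2.98% and 2.50% of all genes met those rules. The 3 lower genes were Usmg5, Vdac2 and Ckmt1, all read by probe sets of less specific types. Differences between the lists were not tested.

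The arrays did not contribute evenly to the shift. WT replicate 2 was the highest of the 4 arrays for 29 of the 51 genes, against 2086 of all 8251 genes. The lowest array was KO replicate 2 for 20 members and KO replicate 1 for 19, against 2030 and 2185 of all genes. As a median deviation from each gene's own mean, the members stood at -0.05 in KO replicate 1, -0.05 in KO replicate 2, 0.01 in WT replicate 1 and 0.08 in WT replicate 2. WT replicate 2 exceeded WT replicate 1 in 40 of the 51 genes by a median of 0.08, and KO replicate 2 exceeded KO replicate 1 in 27, by a median of 0.02. Of all 8251 genes, 4174 and 4414 did so. Without WT replicate 2, 37 of 51 genes were lower in KO and the median was -0.08. Without WT replicate 1, 45 were lower, the median was -0.14, and 34 genes had both KO arrays below the remaining WT array, where 33.9% of all probe sets did.

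Fibre-type and other-tissue markers also moved between the pools. Slow-fibre markers (10 of 11 measured) summed to 20344 and 17238 in KO, against 13236 and 22238 in WT. They were higher in WT replicate 2 than in WT replicate 1 in all 10 genes, by a median of 0.78. Their median log2 fold change was 0.12 in KO over WT, with 3 of 10 genes lower, opposite in sign to the respiratory genes. That sign depends on which WT pool is compared. WT replicate 1 was the lowest array for 8 of the 10 slow-fibre genes, and WT replicate 2 was the highest for 8. The median deviations from the genes' own means were 0.19 and -0.04 in KO replicates 1 and 2. They were -0.46 and 0.31 in WT replicates 1 and 2. Fast-fibre markers (12 of 13) summed to 150700 and 171670 in KO, against 160970 and 155830 in WT. Exocrine pancreas markers (11 of 17 symbols) were higher in KO for all 11 symbols, 10 of them without overlap. They summed to 13353 and 3866 in KO, against 1702 and 1671 in WT. These counts and sums hold 1 gene under 2 symbols, Cela2a and its old name Ela2a. Its single probe set, at 1281 and 252 in KO and 116 and 105 in WT, is thus included 2 times. For comparison with the marker counts, 50.8% of all genes were lower in KO and 16.5% had both KO arrays above both WT arrays. Liver markers (15 of 16) were lower in KO in 13 genes and summed to 2233 and 2229 in KO, against 3962 and 3776 in WT. The similar WT sums hide a difference between the WT pools. WT replicate 2 was above WT replicate 1 in 11 of the 15 genes, with a median difference of 0.72 over the list. The 2 brightest genes went the other way, Cyp2e1 at 1484 and 563 and Hp at 1505 and 934 in WT replicates 1 and 2. Summed signals of adipocyte markers (9 of 11) were 12709 and 12531 in KO, against 13556 and 11600 in WT, and those of lymphocyte markers (9 of 11) were 3248 and 4499 in KO, against 5281 and 3318 in WT. Most of the lymphocyte sum was Ighm, an immunoglobulin heavy chain gene (-0.29 ± 0.24), while 7 of the 9 lymphocyte genes were higher on average in KO, 3 without overlap, with a median of 0.28. Macrophage markers (9 of 9) summed to 1460 and 1639 in KO, against 1594 and 1423 in WT, and endothelial markers (9 of 9) to 1946 and 2075 in KO, against 1933 and 1888 in WT. Erythroid markers (5 of 7) summed to 11452 and 9203 in KO, against 8574 and 6615 in WT. No marker was at 0 on any array, which does not show that each was detected, since Fgg for example read 1.28 in KO replicate 1. The ratio of 3' to 5' signal of the actin control, a measure of RNA integrity, was 0.729 and 0.866 in KO, against 0.624 and 0.686 in WT. That of the Gapdh control was 1.04 and 0.988 in KO, against 0.889 and 0.914 in WT. For both controls both KO arrays were thus above both WT arrays. The part of these differences in the level of the respiratory genes was not tested.

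**Figure D5:**
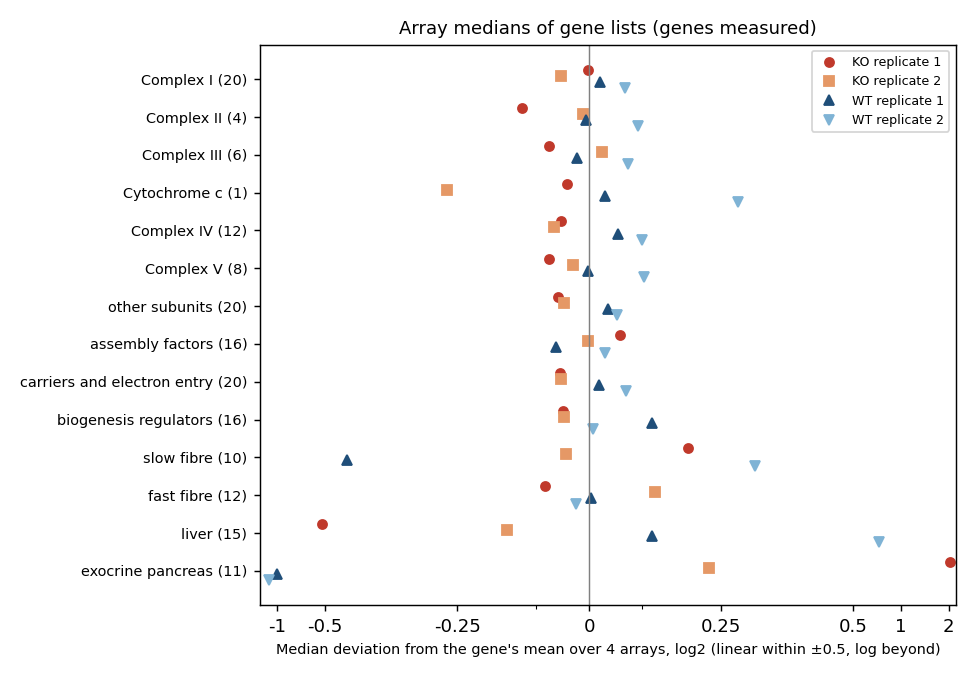
Median deviation of each gene list on each array from the genes' own means over the 4 arrays, on a log2 axis that is linear within 0.5 of 0 and logarithmic beyond, with the number of genes measured in brackets. In the exocrine pancreas list 1 gene is counted under 2 symbols. In complexes I, II, IV and V both KO medians lie below both WT medians, assembly factors do not show that order, and the slow-fibre medians lie at -0.46 in WT replicate 1 and 0.31 in WT replicate 2.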

How the data were processed

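Total RNA of pooled gastrocnemius and soleus was labelled with biotin and hybridised to 1-colour Affymetrix U74Av2 arrays, per the labels' protocols. For every probe set the deposited file gives a single intensity per array on a linear scale. No source used here names the authors' summary algorithm or background correction. The deposited values had been scaled already: each array had a mean of 200.2 once the lowest and highest 2% of probe sets were set aside. The number of arrays limits the precision.

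Controls (66 of 12488 probe sets) were left out and the other 12422 were tested without a filter. Genes were named from the platform annotation where it gave 1 symbol (10833 probe sets, 8251 genes), updated through RefSeq (GRCm38.p6). Intensities were taken to log2 after adding 14, which is 20% of the median over the whole table, so folds of dim genes are understated. KO was compared with WT by limma (version 3.58.1, under R 4.3.3; lmFit, then eBayes with trend), with Benjamini-Hochberg adjustment over all probe sets, two-sided, threshold 0.05. Errors of fold changes are standard errors of that fit. The fit was tested on simulated data. A gene was read from its probe set with the highest mean.

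Values on every array are given for all genes of complex II, for Cycs, for the isoform sets and for the 4 genes with the smallest p of each other complex. From each pathway list the 2 genes with the smallest p are named. All probe sets of a gene with several are given. Members and lists were chosen with earlier results of these data known, so no list was tested. Alternatives were other pseudocounts, a filter on dim probe sets, quantile normalization, no intensity trend, other choices of probe set, a replicate block and leaving out each array.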

Additional observations from a re-analysis of the deposited data

How the results depend on the processing

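Over the 12 alternatives no member had a limma adjusted p under 0.05. The number of members lower in KO was 42 of 51 as reported, 40 with the mean of all probe sets, 41 with quantile normalization, 39 of 47 with the filter on dim probe sets, 34 of 43 without the less specific probe set types, and 37 to 45 when 1 array was left out. The median log2 fold change stayed between -0.14 and -0.08. The number of members at an unadjusted limma p under 0.05, whichever genes these were, was 4 of 51 as reported. Of all 12422 probe sets, 674 met that rule. The member count was 1 of 51 with the mean of all probe sets, against 489 of all 8251 genes. Without the intensity trend it was 2 of 51, against 746 of 12422 probe sets. Without the less specific types it was 1 of 43, against 517 of 9614 probe sets. Genes with separate groups numbered 24 to 34 below WT when 1 array was left out, where 32.8% to 35.3% of all probe sets were. With the replicate block, 42 members were lower and the smallest limma adjusted p of a member was 0.737. An unadjusted limma p under 0.05 was then found for 4 members, against 740 of all 12422 probe sets. The KO and WT differences between same-numbered pools had a correlation of 0.00345 over all probe sets, so the numbers do not show a pairing.

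The log2 fold change took the other sign with the mean of all probe sets for Ndufa1 (-0.067), Ndufb7 (0.17), Cyc1 (0.17) and Atp5g1 (0.16), with quantile normalization for Ndufs1 (0.017), and without the less specific types for Atp5d (0.31) and Atp5g1 (0.64), where another probe set stands for the gene. Leaving out 1 array at a time turned the sign for 20 genes, with these ranges of the log2 fold change: Ndufs1 (-0.073 to 0.052), Ndufa1 (-0.54 to 1.01), Ndufa9 (-0.019 to 0.15), Ndufa10 (-0.062 to 0.21), Ndufb3 (-0.42 to 0.12), Ndufb7 (-0.29 to 0.054), Ndufb9 (-0.10 to 0.019), Ndufc2 (-0.72 to 0.24), Sdha (-0.094 to 0.0087), Sdhb (-0.14 to 0.10), Uqcrc2 (-0.20 to 0.033), Cyc1 (-0.082 to 0.021), Cox6a1 (-0.11 to 0.23), Cox6a2 (-0.012 to 0.18), Cox7b (-0.10 to 0.020), Cox8a (-0.80 to 0.21), Atp5c1 (-0.055 to 0.0047), Atp5d (-0.36 to 0.0043), Atp5f1 (-0.31 to 0.24) and Atp5o (-0.24 to 0.069). The other 31 genes, 27 lower and 4 higher in KO, kept their sign without each array in turn. Among them the fold change still moved by over 1.5 times for many genes, of which only some are listed here. It ranged from -0.70 to -0.32 for Cox6c, -0.44 to -0.19 for Cycs, -0.36 to -0.15 for Sdhd and -0.35 to -0.076 for Sdhc. The range was -0.34 to -0.065 for Ndufa5, -0.57 to -0.061 for Atp5g1 and 0.078 to 0.33 for Ndufv1. Relative to their size, Uqcrc1 (-0.19 to -0.0039), Cox5b (-0.28 to -0.013), Atp5a1 (-0.098 to -0.0071) and Uqcrq (-0.14 to -0.021) moved more than Cox6c. With the mean of all probe sets Cox6c stood at -0.21. The cause was not tested.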
